A study of Mus musculus with 9 samples.

Results

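Olfactory receptor genes encode G protein-coupled receptors of the olfactory epithelium, and in the mouse they form the largest gene family. Each mature olfactory sensory neuron transcribes a single allele of a single receptor gene; ligand binding then acts through the G protein alpha subunit Gnal, adenylate cyclase Adcy3 and a cyclic nucleotide-gated channel to depolarise the cell. Most of the genes lie in clusters and carry their whole coding region in a single exon. A small part of the family is transcribed outside the nose, and male germ cells are the tissue in which such ectopic transcripts have long been known.

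The genes described here are those rows of a testis RNA-seq count table whose symbol begins with Olfr and whose counts, summed over all 9 libraries, reached at least 20. This held for 76 of the 1031 Olfr rows (7.37%), in a table of 23074 genes of which 76.6% reached the same sum. A further 413 Olfr rows had between 1 and 19 counts, and 542 had none in any library. The genes were thus chosen by their summed counts. Of the 76 genes, 32 reached 20 counts in the libraries of each genotype alone, 11 in those of WT only, 12 in those of Rfx2-/- only and 21 in neither alone. A gene that is high in 1 genotype could enter through that genotype alone, so that counts over the 76 describe them and support nothing. Just inside the limit, Olfr898 and Olfr1270 each had 20 counts. Just outside it, Olfr193, Olfr275, Olfr690, Olfr750 and Olfr921 each had 19.

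Testes of 9 mice, freed of their capsule, were taken at postnatal day 29 or 30 and gave 1 library each; all mice were on a mixed background of C57BL/6, 129/Sv and FVB/N. The 5 WT mice were wild type for Rfx2, which encodes a transcription factor of the RFX family that binds the X-box motif. The 4 Rfx2-/- mice were homozygous for a deletion of exon 7, which codes for much of the DNA-binding domain. According to the methods, that exon was removed from the germ line with a Cre transgene under an actin promoter, the mixed background line kept the neomycin cassette of the targeting vector, and littermates were used where possible. Spermatids of this line stop developing before they elongate, and at the age chosen most germ cells of the first wave have come that far. The libraries are of whole tissue, so fewer cells of a type and less RNA per cell cannot be told apart in any value below.

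The deepest library, Rfx2-/- replicate 1, held 28800855 counts, and the 8 other libraries held between 13574764 and 15193330. Rfx2 itself, whose remaining exons are still counted, stood at 549 ± 54.5 CPM (counts divided by the library total, corrected by its TMM factor, and multiplied by 1000000; mean ± SD, n = 5) in WT and at 146 ± 59.8 CPM (n = 4) in Rfx2-/- testes, and was called lower. Of the lists of cell type markers, no gene was called in either direction for any germ or somatic cell type. The summed level of 9 markers of elongating spermatids ranged from 7940 to 17028 CPM in WT and from 6177 to 10305 CPM in Rfx2-/- libraries, with a median log2 fold change of -0.77. For 6 markers of meiotic prophase the ranges were 640.4 to 780.9 and 788.7 to 1927 CPM, the last in Rfx2-/- replicate 2. Round spermatid markers overlapped, at 651.5 to 973.4 and 782.1 to 1098 CPM. In Rfx2-/- replicate 2 genes under 2 kb stood higher and genes over 8 kb lower than the mean of the genotype, by medians of 0.45 and -0.72 on the log2 scale. The trend was opposite in replicate 1, at -0.28 and 0.41, and in replicate 3, at -0.15 and 0.29. The part of these differences in the results on olfactory receptors was not tested.

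The 76 genes lay on 15 chromosomes. There were 14 of the 225 Olfr rows of chromosome 7, 12 of 131 on chromosome 9, 10 of 243 on chromosome 2 and 5 of 29 on chromosome 6, and none of the 19 rows on chromosome 4. All 76 are annotated as protein coding, although 3 carry the suffix -ps of a pseudogene in their symbol. The coding region was 909 to 1032 bases long with a median of 939, and in 72 genes it lay in 1 exon. Merged exons, in contrast, amounted to 939 to 7133 bases with a median of 2909, in 2 or more blocks for all but 4 genes. At these medians most of the annotated exon length was not coding. The lengths are those of GENCODE M21, which is later than the annotation used for counting, so the share of the counted length that was coding is not known.

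The receptors resembled each other moderately. Over the 2850 pairs of coding regions, identity at the nucleotide level was 47.6 to 92.1% with a median of 55.5%. Reads were single, 50 bases long, and were discarded when they fitted more than 1 place in the genome, so the share of 50-base words that a gene has in common with other annotated transcripts bears on what could be counted. That share had a median of 3.40% and was 0 for 17 genes. It was above 20% for Olfr1393, with 30.6% of its words in other genes, and for Olfr31, with 24.5%. The gene that shared the largest number of these words was Olfr1392 for Olfr1393 and the antisense transcript Gm48860 for Olfr31. Reads from stretches that occur at another place in the genome were discarded. Gm48860 lies over Olfr31 itself, on the opposite strand and along 22.7% of its exon length, and was not among the genes counted, so reads of the shared words there are not lost in this way and cannot be assigned to either strand.

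Coding sequence from 2 pairs of genes is shown, because the results turn on how well close relatives can be separated. The first pair is Olfr701 and its relative Olfr697 on the same chromosome, and the second is Olfr127 and Olfr128, whose coding regions are 92.0% identical. The first 150 coding bases are given 5′ to 3′ from the start codon, from GENCODE M21 on GRCm38, with the bases that differ within a pair in capitals.
Olfr701, chr7:106818085-106818234, plus strand: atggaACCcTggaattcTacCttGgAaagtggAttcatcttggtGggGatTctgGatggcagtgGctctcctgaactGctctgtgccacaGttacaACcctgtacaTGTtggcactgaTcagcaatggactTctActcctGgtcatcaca
Olfr697, chr7:106741783-106741932, minus strand: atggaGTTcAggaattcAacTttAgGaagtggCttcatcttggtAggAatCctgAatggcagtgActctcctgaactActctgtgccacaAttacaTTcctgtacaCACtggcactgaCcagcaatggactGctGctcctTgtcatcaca
Olfr127, chr17:37903548-37903697, plus strand: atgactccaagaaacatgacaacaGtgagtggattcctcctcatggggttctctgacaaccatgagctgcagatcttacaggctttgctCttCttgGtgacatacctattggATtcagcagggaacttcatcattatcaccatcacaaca
Olfr128, chr17:37923568-37923717, plus strand: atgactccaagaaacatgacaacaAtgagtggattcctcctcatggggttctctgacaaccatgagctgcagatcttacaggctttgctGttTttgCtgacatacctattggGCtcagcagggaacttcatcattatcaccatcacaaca
In the first pair 25 of the 150 bases differed, and the longest exact run shared by the whole coding regions was 26 bases, shorter than a read. In the second pair 6 bases differed and the longest exact run was 288 bases, so that reads from such a stretch would be discarded for both genes.

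**Figure D1:**
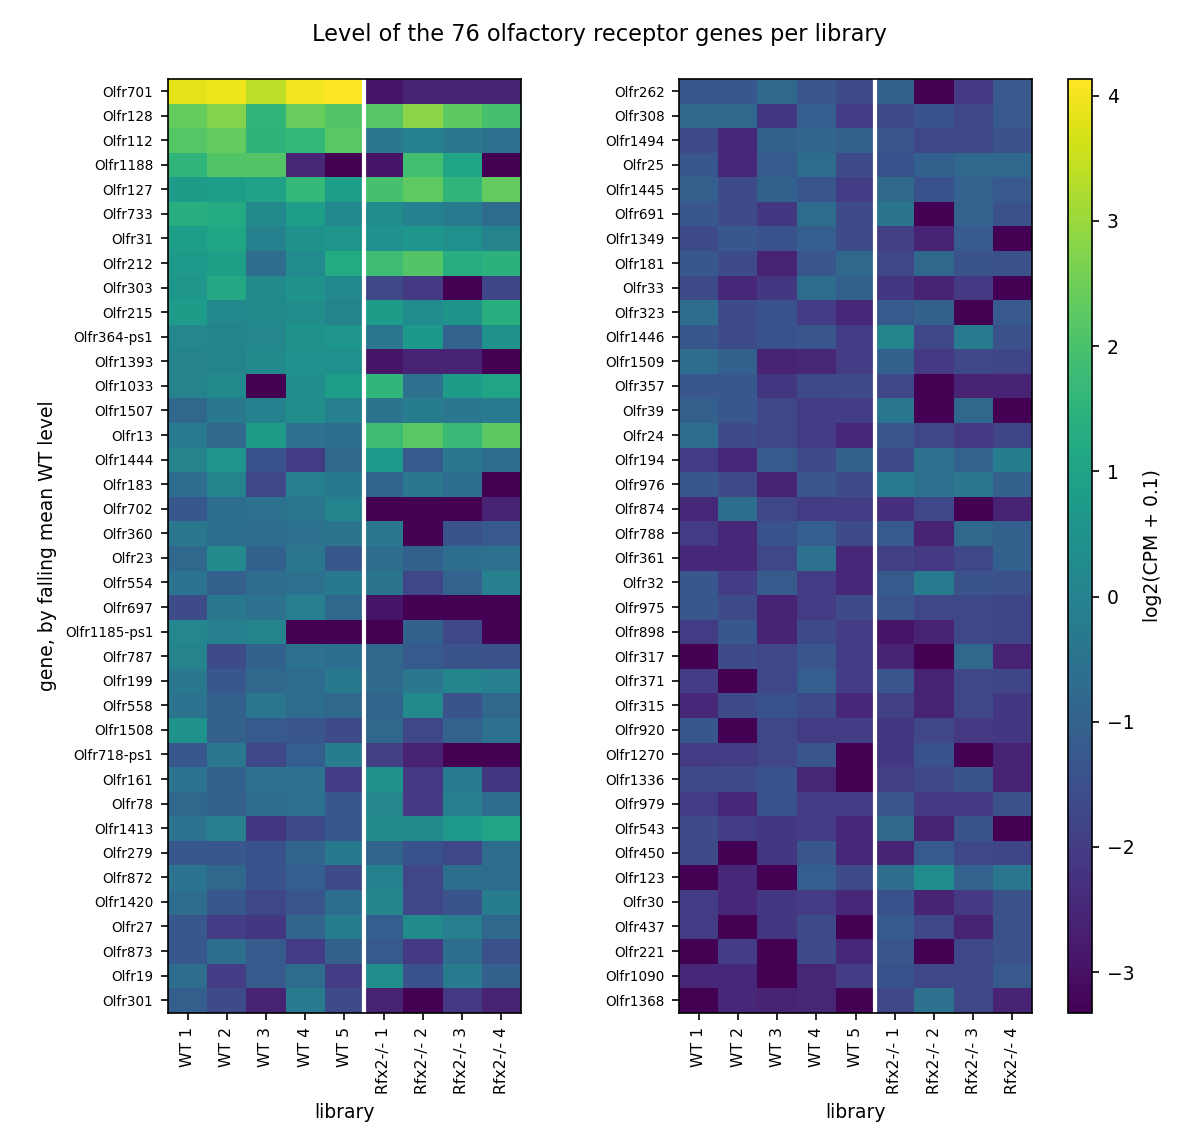
Level of each of the 76 olfactory receptor genes (rows, ordered by mean WT level, in 2 columns) in each of the 9 libraries, as log2(CPM + 0.1) on the colour scale; the white line separates the 5 WT from the 4 Rfx2-/- libraries. Olfr701 has the brightest cells in WT and is near the bottom of the scale in every Rfx2-/- library.

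Levels were low for most of the family. Mean WT levels ran from 0.0435 to 14.7 CPM with a median of 0.326 CPM, and 12 of the 76 genes were above 1 CPM in WT and 9 in Rfx2-/- testes. Summed over the 76 genes, the level in CPM of total counts was 49.8 to 62.1 in WT and 44.2 to 52.2 in Rfx2-/- libraries, so the genotypes overlapped. Olfr701 supplied 24.9% of these counts in WT. Without it the sums were 35.7 to 47.5 in WT and 44.2 to 52.1 in Rfx2-/- libraries, and the genotypes still overlapped.

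Per kb of merged exon, the order of the levels in WT began with Olfr701 at 3.50 ± 0.645 CPM per kb (SD, n = 5), followed by Olfr1188 at 1.62 ± 1.51 and Olfr128 at 1.30 ± 0.363. Olfr112 came next at 0.83 ± 0.205 CPM per kb, then Olfr127 at 0.531 ± 0.158 and Olfr212 at 0.516 ± 0.236. The range of Olfr701 in WT, 2.46 to 4.17 CPM per kb, overlapped with that of Olfr1188, which reached 3.07, and with none of the other genes named here. From Olfr1188 down, each neighbour in this order overlapped the next across the WT libraries. In Rfx2-/- testes the order began with Olfr128 at 1.36 ± 0.390 CPM per kb (SD, n = 4), Olfr212 at 1.15 ± 0.313, Olfr127 at 1.10 ± 0.259 and Olfr13 at 1.07, while Olfr701 stood in place 73 of 76. These lengths come from a later annotation than the one used for counting and shift the levels of genes whose exons were revised.

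Genotypes were compared with the quasi-likelihood test of edgeR over the 15613 genes with enough counts, and a gene was called when its Benjamini-Hochberg adjusted p was at most 0.01 and its change exceeded 2-fold. Only 17 of the 76 receptor genes had enough counts to be tested, and a gene could pass that filter through a single genotype. Olfr701, Olfr1393, Olfr112 and Olfr303 fell and Olfr13 rose in Rfx2-/- testes. That is 4 of 17 lower (23.5%) and 1 of 17 higher (5.88%). Of all genes tested, 3.68% were lower and 0.826% were higher. The 12 other receptors tested were not called. DESeq2 called 4 of the 17 lower and 3 higher, and of all genes 4.44% and 1.27%. The median log2 fold change was -0.21 over the 17 receptor genes and 0.03 over all genes tested.

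**Figure D2:**
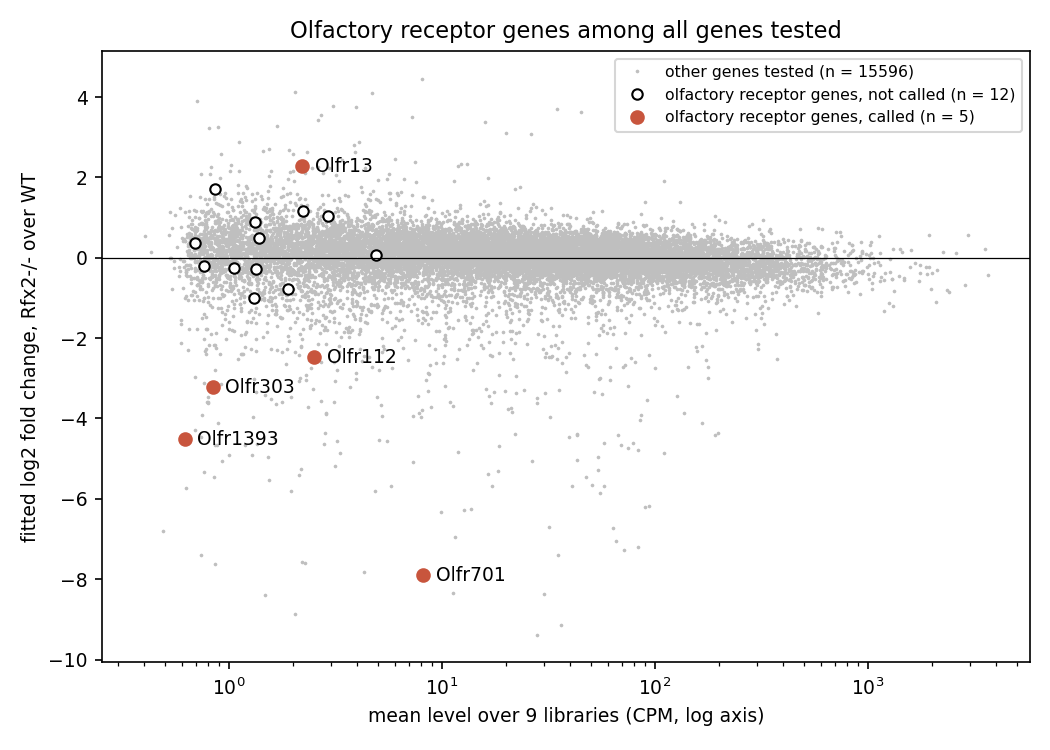
Fitted log2 fold change, Rfx2-/- over WT, against the mean level over the 9 libraries in CPM (log axis), for the 15613 genes tested; grey points are other genes, open circles the 12 olfactory receptor genes that were not called and filled circles the 5 that were. Olfr701 lies at -7.89, while the 12 open circles stay between -1.0 and 1.71.

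Olfr701 (chromosome 7, 106814129 to 106821472 on the plus strand of GRCm38) had 186, 198, 155, 217 and 224 counts in the 5 WT libraries and 1 count in each of the 4 Rfx2-/- libraries. Its levels were 10.3 to 17.5 CPM in WT and 0.0332 to 0.0682 CPM in Rfx2-/- testes, and no library came near those of the other genotype. The ratio of WT to Rfx2-/- counts, each over the scaled library totals, was 273, with a 95% interval of 106 to 1003 (exact conditional interval of 980 against 4 counts, covering counting error only). In edgeR the adjusted p was 1.38e-08, and across 15 alternative analyses the adjusted p was at most 4.66e-07. Its words of 50 bases occurred elsewhere for 0.401% of the total.

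RefSeq and GENCODE place the start of Olfr701 at the same base, which was so for few of the receptors, and the 250 bases before it are therefore shown from the RefSeq promoter table (GRCm38.p6, 5′ to 3′). Capitals mark the only match to GGNAAC, an arm of the stricter X-box form searched below, here in the opposite orientation as GTTNCC.
Olfr701, chr7:106813879-106814128, plus strand: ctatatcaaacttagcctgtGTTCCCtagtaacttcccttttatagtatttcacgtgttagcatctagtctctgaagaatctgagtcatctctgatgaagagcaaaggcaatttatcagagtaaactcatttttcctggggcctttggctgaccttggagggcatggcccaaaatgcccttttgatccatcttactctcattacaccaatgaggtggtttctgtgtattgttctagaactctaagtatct
The match begins 230 bases before the start. Shortly after it stand the letters agtaac, which differ from GGNAAC in their opening letter and so were not matched. A promoter window of 300 bases (250 before and 50 after the RefSeq start) was found for 61 of the 76 genes, with 62 windows in all. For many receptors that start lies inside the gene as GENCODE has it. It was 1846 bases downstream of the GENCODE start for Olfr1393, 1848 for Olfr13 and 9458 for Olfr1420. The windows of Olfr127 and Olfr128 end in coding bases. Such windows may miss the promoter in use, so the shares below describe RefSeq windows only. Searched on both strands, 26 of these 62 windows (41.9%) held GGNAAC, as did 45.3% of the 32851 promoters of the table and 34.2% of the 948 Olfr promoters. The X-box palindrome occurred in 0 of the 62, in 0.422% of the Olfr promoters and in 1.88% of all promoters. Its stricter form, with arms that hold GGNAAC, occurred in 0 of the 62, in 0 of the Olfr promoters and in 0.451% of all. These searches overlap, since the stricter form contains GGNAAC and is itself a case of the palindrome. Each of the longer forms was searched with a fixed spacing between its arms, so that inverted repeats with another spacing or with a mismatch were not looked for, in Olfr701 as in the others. A match of letters is a description and not a bound site, and a window without one says nothing of the factor.

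A transcript of another kind begins beside Olfr701. The long non-coding RNA gene 4930458B22Rik, on the opposite strand, has its start 27 bases from that of Olfr701, and it was not among the genes counted. Of the 23 Olfr rows that lay within 500 kb, Olfr701, Olfr702 and Olfr697 were among the 76 genes, and 7 had no count at all. The 22 other rows together had 108 counts in the 5 WT libraries and 12 in the 4 Rfx2-/- libraries, whose scaled totals summed to 67417899.0 and 75025543.0.

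Olfr702 (106823489 to 106833893, minus strand) ends 2017 bases from the end of Olfr701 and runs towards it. It had 4, 7, 9, 9 and 12 counts in WT and 0, 0, 0 and 1 in Rfx2-/- libraries. Olfr697 (106740834 to 106742443, minus strand), 71.7 kb away, had 3, 9, 9, 11 and 6 counts in WT and 1, 0, 0 and 0 in Rfx2-/- libraries. For both genes every WT library stood above every Rfx2-/- library. The ratio of scaled counts was 45.6 for Olfr702 (95% interval 7.74 to 1846) and 42.3 for Olfr697 (7.14 to 1714). Neither had enough counts for the test above. In the fit over all 20653 genes with at least 1 count, both were called lower by edgeR, with adjusted p = 6.46e-04 for Olfr702 and 6.08e-04 for Olfr697.

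None of the 50-base words of Olfr697 or Olfr702 occurred in another annotated transcript. The coding region of Olfr697 was 78.6% identical to that of Olfr701, and that of Olfr702 was 56.6% identical, close to the median of all pairs. Olfr700, which is not among the 76 and starts 5.29 kb from Olfr701, had 0, 4, 1, 3 and 5 counts in WT and 0 in every Rfx2-/- library. With 3 counts over the 4 Rfx2-/- libraries, the limit that a count of 0 allows, Olfr700 would be 4.82-fold lower. That figure leaves out the error of the WT counts. Farther on, the 14 rows beyond Olfr703 on that side had at most 3 counts each over all 9 libraries, in WT, in Rfx2-/- or in both.

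**Figure D3:**
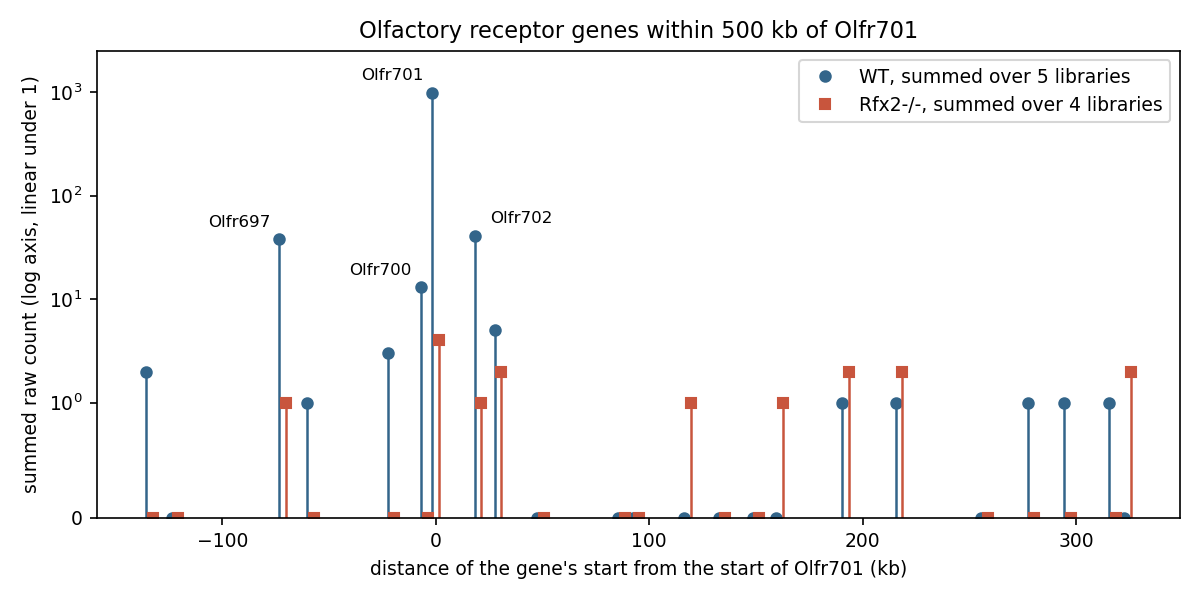
Summed raw counts (log axis, linear under 1) of the 23 Olfr rows within 500 kb of Olfr701 against the distance of each start in kb, for 5 WT (circles) and 4 Rfx2-/- libraries (squares). Olfr701 reaches 980 counts in WT and 4 in Rfx2-/-, and Olfr697, Olfr700 and Olfr702 beside it have 38, 13 and 41 counts in WT and 1, 0 and 1 in Rfx2-/-.

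Olfr1393 (chromosome 11, 49278304 to 49282769, plus strand), a receptor also transcribed in the kidney, had 12, 12, 16, 17 and 16 counts in WT and 1, 1, 1 and 0 in Rfx2-/- libraries. No library overlapped, and the ratio of scaled counts was 27.1 (95% interval 8.91 to 134). Its adjusted p was 2.69e-05 by edgeR. Because 30.6% of its words also occur in other genes, with Olfr1392 sharing more than any other, its level is uncertain. The nearest gene of another kind that was tested, Mgat1, lies 15.3 kb away and had a log2 fold change of 0.14 (adjusted p = 0.479).

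Olfr303 (chromosome 7, 86391810 to 86397789, minus strand) had 19, 28, 16, 18 and 13 counts in WT and 6, 2, 0 and 3 in Rfx2-/- libraries. The genotypes did not overlap, at 1.4 ± 0.464 CPM (SD, n = 5) and 0.132 ± 0.0932 CPM (n = 4), which is 9.42% of the WT level. Its log2 fold change was -3.22 with an SE of 0.47 (edgeR adjusted p = 6.59e-04). Its neighbour Olfr301, 6.06 kb away, had 5, 3, 1, 10 and 3 counts in WT and 2, 0, 2 and 1 in Rfx2-/- libraries, which overlap, and it was not called in the fit over all genes (log2 fold change -2.15, adjusted p = 0.0899).

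Olfr112 belongs to the receptor cluster on chromosome 17 that is linked to the major histocompatibility complex, 37561668 to 37569451 on the minus strand. It had 57, 64, 42, 41 and 59 counts in WT and 21, 13, 10 and 9 in Rfx2-/- libraries. Levels fell to 18% of WT, from 3.95 ± 0.975 to 0.709 ± 0.117 CPM, with no overlap. The log2 fold change was -2.46 with an SE of 0.26 (edgeR adjusted p = 4.85e-05).

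Of the other genes of that cluster among the 76, Olfr127 and Olfr128 had enough counts for the main test and were not called there. Olfr127, 85.4% identical to it in the coding region and 331 kb away, had 21, 22, 28, 41 and 22 counts in WT and 114, 71, 42 and 76 in Rfx2-/- libraries. Its CPM values overlapped through WT replicate 4 alone, which stood at 3.02 CPM, above the lowest Rfx2-/- library at 2.86. The log2 fold change of Olfr127 was 1.04 with an SE of 0.25, and its adjusted p of 0.0185 missed the limit (edgeR). Olfr127 was called without WT replicate 4, at a log2 fold change of 1.24, with library totals alone, at 1.17, and by DESeq2, at 1.05 (adjusted p = 0.00266).

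Olfr128, 13.8 kb from Olfr127, had 66, 85, 44, 70 and 55 counts in WT and 136, 106, 68 and 58 in Rfx2-/- libraries. The genotypes overlapped throughout, and the log2 fold change was 0.06 with an SE of 0.25. Whether Olfr127 and Olfr128 differed in their change was not tested. Olfr123 of the same cluster had 0, 1, 0, 5 and 3 counts in WT and 16, 17, 6 and 10 in Rfx2-/- libraries. It had too few counts for the main test, and in the fit over all genes its adjusted p was 0.0485. Rfx2 lies on the same chromosome, 18.8 Mb from Olfr128.

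Olfr13 (chromosome 6, 43172140 to 43177460, plus strand) was the only receptor called higher in edgeR with the filter on low counts. It had 10, 6, 24, 8 and 7 counts in WT and 103, 68, 47 and 72 in Rfx2-/- libraries. Levels were 0.792 ± 0.462 CPM in WT and 3.97 ± 0.768 CPM in Rfx2-/- testes, 5.01-fold higher, and the genotypes did not overlap although WT replicate 3 stood above the other WT libraries at 1.6 CPM. Its log2 fold change was 2.29 with an SE of 0.33 (edgeR adjusted p = 6.28e-04). Olfr437, 2.28 kb away and 68.7% identical in the coding region, had 2, 0, 2, 3 and 0 counts in WT and 10, 3, 1 and 4 in Rfx2-/- libraries. It was not called in the fit over all genes (adjusted p = 0.356). Arhgef5, 88.1 kb from Olfr13, had a log2 fold change of 0.00 (adjusted p = 0.994).

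**Figure D4:**
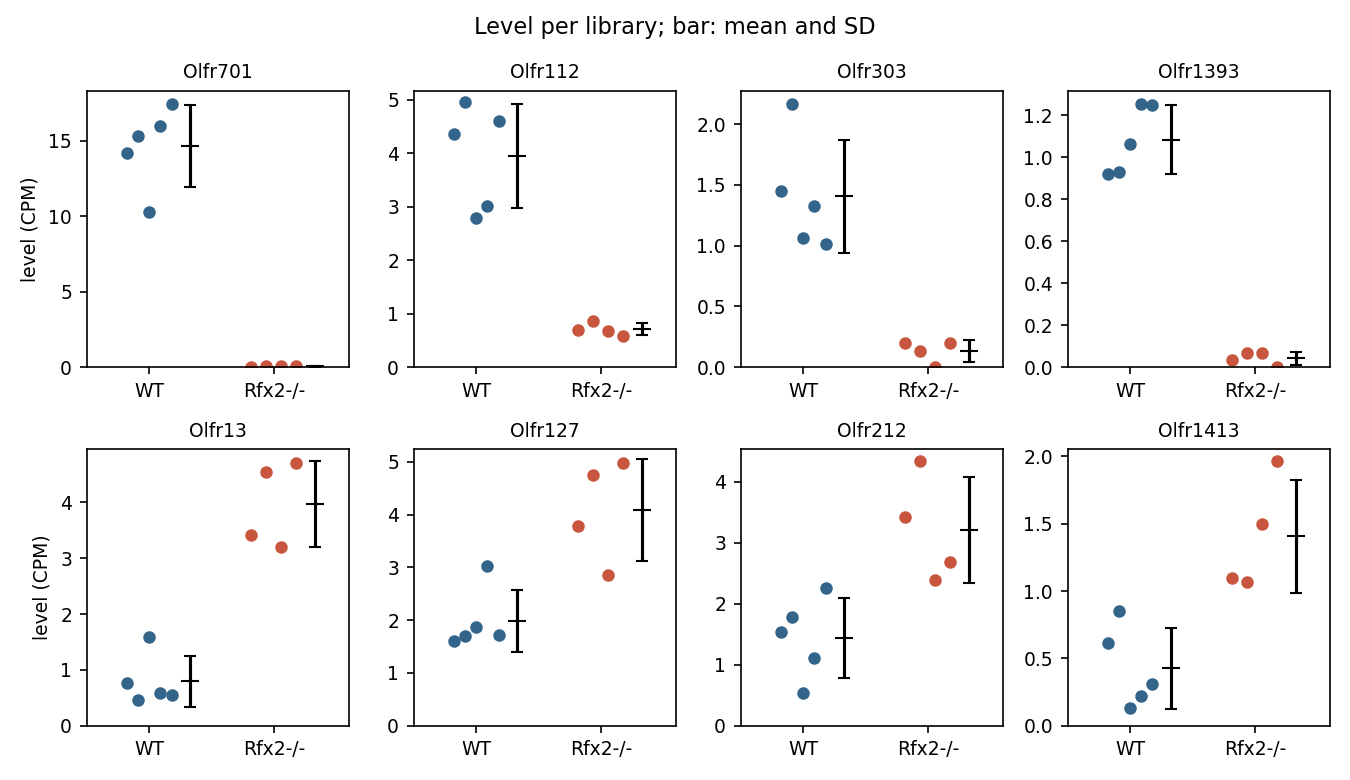
Level in CPM (linear axes from 0) of 8 olfactory receptor genes in each of 5 WT and 4 Rfx2-/- libraries; points are libraries and bars the mean and SD. The 4 genes of the upper row were called lower, Olfr13 was called higher, and Olfr127, Olfr212 and Olfr1413 had an adjusted p between 0.0185 and 0.0483 and were not called.

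Other receptors came near the limit on the higher side. Olfr1413 (chromosome 1) had 8, 11, 2, 3 and 4 counts in WT and 33, 16, 22 and 30 in Rfx2-/- libraries, with a log2 fold change of 1.71 and an adjusted p of 0.0239 (edgeR). Its CPM values did not overlap between genotypes. Olfr212 (chromosome 6, 116506516 to 116517965) had 20, 23, 8, 15 and 29 counts in WT and 103, 65, 35 and 41 in Rfx2-/- libraries. Here too the CPM values did not overlap, though the lowest Rfx2-/- value, 2.39 CPM, was close to the highest WT value, 2.26 CPM. Its log2 fold change was 1.16 with an adjusted p of 0.0483. Olfr215, 62.1 kb from it, overlapped (log2 fold change 0.50, adjusted p = 0.265). Beside Olfr212, Alox5 at 45.3 kb had a log2 fold change of 0.15 and March8 at 97.0 kb one of 0.03. No gene outside the family that lay within 100 kb of any of the 76 receptors was called, but many had too few counts for the test. Of all genes tested, 3.68% were called lower and 0.826% higher. Near the limit in edgeR were 1810065E05Rik beside Olfr30 (log2 fold change -2.27, adjusted p = 0.0123) and Fam183b beside Olfr315 (-1.36, 0.0192). On the higher side, Cnga4 beside Olfr691 had a log2 fold change of 1.05 (edgeR adjusted p = 0.0206).

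Of the remaining receptors tested, Olfr733 had the lowest fold change. Its counts were 32, 29, 16, 23 and 13 in WT and 34, 13, 11 and 8 in Rfx2-/- libraries, with overlapping CPM values and a log2 fold change of -1.0 (adjusted p = 0.0843). Olfr31, Olfr364-ps1, Olfr1444 and Olfr1507 had log2 fold changes of -0.27, -0.25, 0.36 and -0.21, each with overlapping genotypes and an adjusted p of at least 0.550 (edgeR), and Olfr1033 had one of 0.90 (adjusted p = 0.347). Olfr1507 is MOR28, a receptor whose transcription in the nose depends on the H element, and its neighbours Olfr1508 and Olfr1509 had 66 and 36 counts over all libraries.

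On chromosome 2, Olfr1188, Olfr1185-ps1 and Olfr1033 differed strongly between libraries of the same genotype. Olfr1188 had 37, 54, 65, 1 and 0 counts in WT and 1, 54, 29 and 0 in Rfx2-/- libraries, so that 5 libraries had 29 counts or more and 4 had at most 1. Olfr1185-ps1, 54.9 kb away, had 13, 11, 14, 0 and 0 counts in WT and 0, 6, 3 and 0 in Rfx2-/- libraries. The same 4 libraries, WT replicates 4 and 5 and Rfx2-/- replicates 1 and 4, were lowest for both genes, and replicate 1 is the deepest of all. With 0.295% of its words shared, Olfr1188 has little to lose to other genes. Its log2 fold change of -0.78 had an SE of 1.14 (edgeR adjusted p = 0.683). Olfr1033, 2.51 Mb away, was absent from WT replicate 3 only, with 12, 14, 0, 16 and 22 counts in WT and 88, 9, 23 and 30 in Rfx2-/- libraries. The alleles that these mice of mixed background carry at the genes were not analysed here.

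**Figure D5:**
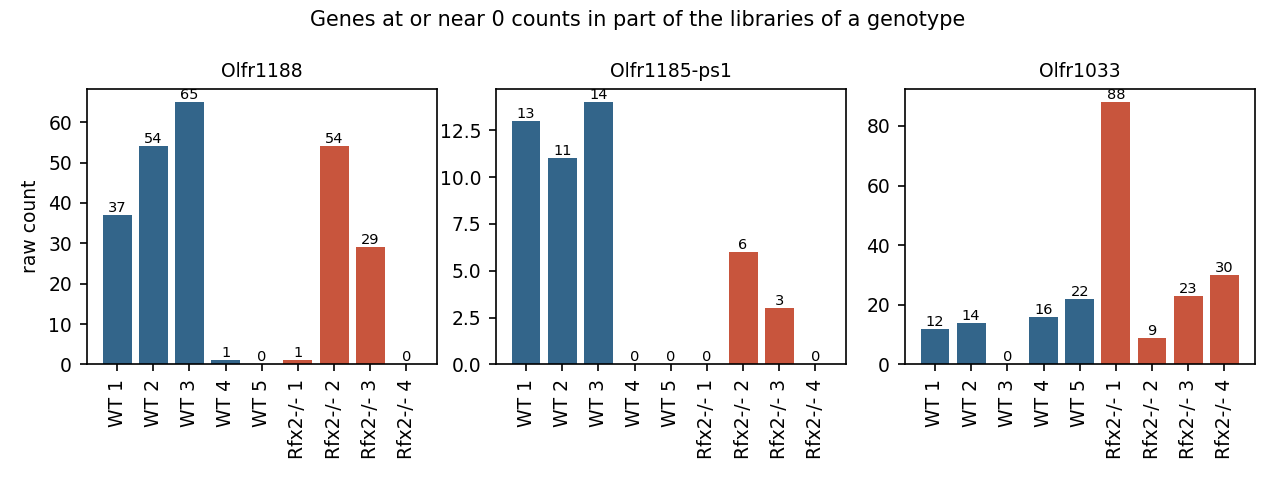
Raw counts of Olfr1188, Olfr1185-ps1 and Olfr1033 in each of the 9 libraries (blue bars WT, red bars Rfx2-/-; linear axes from 0). Olfr1188 and Olfr1185-ps1 are at 0 or 1 in the same 4 libraries, and Olfr1033 is at 0 in WT replicate 3.

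The 59 receptors with too few counts for the test had summed counts of 20 to 88. Mean levels were 0.0435 to 0.635 CPM in WT and 0.00830 to 0.743 CPM in Rfx2-/- testes, and the Rfx2-/- mean was the higher in 32 of them and the lower in 27. Over all 76 genes the genotypes did not overlap, with Rfx2-/- lower, for 7 (9.21%). They did not overlap, with Rfx2-/- higher, for 6 (7.89%). Among all 17672 rows with at least 20 counts, 9.07% and 5.94% did so, which is near the share of the receptors. In the fit over all genes with a count, 6 of the 76 were called lower (7.89%) and 1 was called higher (1.32%). Of all genes in that fit 2.93% and 0.75% were called. The genes of that fit include 2981 rows under 20 counts, so these shares come from sets of unlike depth.

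In that same fit 13 of the 76 had an adjusted p of at most 0.05 (edgeR). Besides those named, they were Olfr718-ps1, with 4, 9, 3, 5 and 10 counts in WT and 5, 1, 0 and 0 in Rfx2-/- libraries, and Olfr976, with 4, 3, 1, 4 and 3 against 23, 9, 10 and 6. Their log2 fold changes were -2.49 (adjusted p = 0.0414) and 1.46 (0.0478). Other receptors known from tissues outside the nose were among those without a call. Olfr78, a receptor for short-chain fatty acids found in kidney and carotid body, had 83 counts in all, of which 30 came from Rfx2-/- replicate 1, and Olfr558 had 76. The adjusted p of these 2 genes was 0.507 and 0.942. The exons of Olfr78 share 16.2% of their length with Olfr560. This deepest of the libraries, Rfx2-/- replicate 1, was the highest of its genotype in CPM for 26 of the 59 low receptors, and replicates 2, 3 and 4 for 13, 11 and 9. The receptors were chosen by summed raw counts, in which the deepest library weighs most, so these numbers describe the choice as well.

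No gene of the signalling chain of olfactory neurons was called. The list held 29 genes for transduction, receptor export and receptor choice, of which 22 were tested, with 0 called lower, 0 called higher and 5 at an unadjusted p under 0.05 in edgeR, and a median log2 fold change of -0.08. Of all genes tested in edgeR, 3.68% were called lower and 0.826% higher. A list of 22 is too short to tell 0 calls from these shares. With DESeq2 1 was called. The G protein alpha subunit Gnal stood at 5.22 ± 1.02 CPM (SD, n = 5) in WT and 4.83 ± 1.31 CPM (n = 4) in Rfx2-/- testes, and the cyclase Adcy3 at 11.3 ± 0.230 and 10.4 ± 4.15 CPM. The channel subunit Cnga4 had 5.63 ± 1.42 CPM in WT and 11.6 ± 3.64 in Rfx2-/- testes, with a log2 fold change of 1.05 and an adjusted p of 0.0206 in edgeR. Prkg1, a cGMP-dependent kinase, had 13.3 ± 2.19 and 6.86 ± 0.459 CPM, with an adjusted p of 0.00239 at a log2 fold change of -0.96, just short of 2-fold.

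Rtp1, a chaperone that carries receptors to the cell surface, had 18, 12, 14, 17 and 19 counts in WT and 34, 8, 5 and 5 in Rfx2-/- libraries (log2 fold change -0.91, adjusted p = 0.141). Genes listed as markers of the sensory neuron differed. Over all 9 libraries, Adcy3 had 1606 counts, Cnga4 1298, Gnal 740 and Rtp1 132. The other markers on the list were near 0. Omp, the olfactory marker protein, had 23 counts, Cnga2, the main channel subunit, had 9, Stoml3 had 8 and the G protein subunit Gng13 had 18. The 8 markers of the olfactory sensory neuron summed to 20.5 to 25.8 CPM in WT and 16.9 to 38 CPM in Rfx2-/- libraries, most of it from Adcy3, Cnga4 and Gnal.

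Chemoreceptor genes of other families were detected at different rates. Of the vomeronasal receptors, 11 of 163 Vmn1r rows (6.75%) and 18 of 126 Vmn2r rows (14.3%) had at least 20 counts. So did 1 of 11 Taar rows (trace amine receptors), 2 of 3 Tas1r rows (sweet and umami taste receptors), 0 of 35 Tas2r rows (bitter taste receptors), 0 of 7 Fpr rows and 13 of 16 Ms4a rows, a family that includes receptors of the necklace neurons of the nose and proteins of leukocytes. Of these 45 genes 17 were tested, with 1 called in each direction and a median log2 fold change of 0.30. Of all genes tested, 3.68% were called lower and 0.826% higher, and 17 genes are too few to set 1 call apart from these shares. Ms4a13 fell from 90.1 to 11.3 CPM (log2 fold change -2.99). Tas1r1, a subunit of the umami receptor, rose from 20.2 to 47.6 CPM (log2 fold change 1.23, adjusted p = 0.00815), but lost its call without WT replicate 2, 3, 4 or 5 and without Rfx2-/- replicate 2, 3 or 4, each left out alone. Ms4a5, at 91.4 and 95.7 CPM, had a log2 fold change of 0.06.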

How the data were processed

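Testis RNA of 5 WT and 4 Rfx2-/- mice was sequenced by the authors as single reads of 50 bases. Per the labels and methods, they were mapped to GRCm38 with STAR 2.4, reads with more than 1 position were discarded, and featureCounts 1.4.6 counted reads over merged exons of protein coding isoforms, leaving out reads over exons of different genes; the use of strand is not given in the sources used here. The deposited values are raw counts per gene, without normalisation. Symbols, positions and exon lengths came from GENCODE M21 (GRCm38), which held 96.6% of the gene IDs; rows with no symbol there could not be members.

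Depth was 13574764 to 28800855 counts, and 3 counts, the limit that a count of 0 allows, is 0.0996 CPM in Rfx2-/- replicate 1 and 0.196 to 0.234 CPM elsewhere. Intervals cover counting error only. Genotypes were compared in edgeR 4.0.16 (R 4.3.3; TMM, filterByExpr, robust quasi-likelihood test, Benjamini-Hochberg adjustment over 15613 genes). The procedure was tested on simulated data. Alternatives were DESeq2 1.42.0, other scalings, no filter, a length correction, a thinned library and each library left out. P-values weigh the difference between genotypes against the spread between mice, which was estimated with information shared across genes. All 9 columns were matched to a mouse by the number in its name.

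The receptors named were those called or with an adjusted p of at most 0.05, those within 500 kb of Olfr701, the 8 with the highest mean CPM, those called without the filter, those at 0 throughout a genotype (none was) and those at the edge of the count limit; other receptors given with values were chosen after their values were seen. Members, rule and lists were chosen with earlier results of these data known. Identity was computed from coding sequence (Biopython 1.88), as no protein table was used here, and promoters are RefSeq's.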

Additional observations from a re-analysis of the deposited data

Results flagged for a closer look

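In 44 groups of libraries (the 17 receptors tested and the summed families, each by genotype), 4 held a library far from the rest by Dixon's criterion, which chance alone gives in about 1 in 20 groups. Olfr701 in Rfx2-/- replicate 1 stood at 0.0332 CPM against 0.0654 to 0.0682 in the others, each value being 1 count and this library the deepest. Olfr13 in WT replicate 3 stood at 1.6 CPM, with the other WT libraries at 0.465 to 0.765, and remained below every Rfx2-/- library. Olfr127 in WT replicate 4 stood at 3.02 CPM, with the others at 1.61 to 1.86. The summed Vmn1r family in Rfx2-/- replicate 1 reached 8.26 CPM of total counts, with the others of that genotype at 4.70 to 5.00.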

How the results depend on the processing

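The 4 receptors called lower and the call of Olfr13 held in each of the 15 alternatives planned, with log2 fold changes of -8.09 to -7.57 for Olfr701, -4.74 to -4.19 for Olfr1393, -3.93 to -2.87 for Olfr303, -2.56 to -2.32 for Olfr112 and 2.15 to 2.77 for Olfr13. The number lower was 6 without the filter on low counts. The number higher was 2 with library totals alone (Olfr127 added), 3 with DESeq2 (Olfr127 and Olfr1413 added) and 1 to 2 when a library was left out; an alternative added after seeing the data, without the filter and without Rfx2-/- replicate 2, gave 2. With a limit of 50 summed counts the calls did not change. Olfr127 became called in 3 alternatives and Olfr1413 in 1, while the log2 fold change turned sign for Olfr364-ps1 without Rfx2-/- replicate 3 (0.01; -0.52 to 0.01 with a library left out), for Olfr1444 without Rfx2-/- replicate 1 (-0.26; range -0.26 to 0.60), and for Olfr128 without WT replicate 3 (-0.04) or Rfx2-/- replicate 2 (-0.15; range -0.15 to 0.20). None of these 3 genes was called in any setting. Transduction genes called numbered 1 with library totals alone or with DESeq2 (Cnga4 in both) and 0 to 1 with a library left out. Other chemoreceptors called numbered 1 to 3 when a library was left out (Ms4a4d added without Rfx2-/- replicate 1), and Ms4a13 was called in all 15. The cause of these changes was not tested. No paired analysis was possible because the labels give no batch, litter or pairing of the mice. For the 59 receptors with 20 to 88 counts in all, depth limits what can be seen, and a missing call does not show equal levels.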

Other observations

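Below the limit of 20 summed counts, Olfr275 on chromosome 4 had 1, 4, 3, 7 and 4 counts in WT and 0 in each Rfx2-/- library. With 3 counts over the 4 Rfx2-/- libraries, the limit that a count of 0 allows, it would be 7.05-fold lower. That figure leaves out the error of the WT counts. Olfr275 was called lower in the fit over all genes with a count (edgeR adjusted p = 0.00887). Its counts lie 1 under the limit, so it is not among the 76 receptors. The 955 Olfr rows under the limit together reached 17.6 CPM of total counts in Rfx2-/- replicate 1 and 7.36 to 12.3 in the other 8 libraries. In that deepest library 324 Olfr rows had at least 1 count, against 140 to 190 in the others.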
